A study of Homo sapiens with 9 samples.

Results

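The 9 genes described here mark the osteoblast, the cell that builds bone, and were followed in U2-OS, an established human osteosarcoma cell line. They were chosen by name as osteoblast transcription factors (RUNX2, SP7, DLX5 and MSX2) and as genes of the bone matrix and of mineral deposition (ALPL, SPARC, SPP1, IBSP and BGLAP), and each was matched by its Ensembl identifier. They are 9 of the 60609 genes in the count tables. Total RNA had been depleted of ribosomal RNA and sequenced in 9 libraries. In the NCBP2 arm, 6 libraries came from 2 U2-OS clones, A1 and A4, in which NCBP2 is overexpressed, with 3 libraries per clone, lettered A to C. NCBP2 is the subunit of the nuclear cap-binding complex that holds the cap of new transcripts. In the vector arm, the libraries lettered A, B and C came from vector clones 2, 3 and 1, separate lines that received an empty vector by the same procedure. Values for single libraries are given in the order A, B, C throughout. The labels name neither the promoter that drives NCBP2 nor whether libraries from 1 clone were grown separately. The NCBP2 arm therefore holds 2 clones, and p-values measure the spread between these libraries, which may be partly technical.

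Osteoblasts arise from mesenchymal progenitors under RUNX2, the runt-domain factor without which bone does not form. SP7 (osterix) acts downstream of RUNX2, and DLX5 and MSX2 are homeodomain factors that act on the same lineage, DLX5 mostly as an activator and MSX2 often as a repressor. Committed cells then make the matrix proteins SPARC (osteonectin) and SPP1 (osteopontin) and the phosphatase ALPL, which frees phosphate for mineral, whereas IBSP (bone sialoprotein) and BGLAP (osteocalcin) belong to the mineralizing, mature osteoblast.

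RUNX2 reads the sequence ACCACA, or TGTGGT on the other strand, so the stretch before the start of each gene was searched for these 6 letters. RefSeq promoter entries on GRCh38.p14 were found for 7 of the 9 genes, with 10 promoters in all; SP7 and DLX5 had no entry. Within the 250 bases before the start, 3 of the 10 promoters, those of BGLAP and SPP1 and the upstream promoter of RUNX2, held the 6 letters on either strand, against 11% of all 35116 promoters in the table. These 3 are shown with the promoter of SPARC, the most abundant of the 9 genes, which held no match. Each is written 5′ to 3′ on the strand of its gene, with matches in capitals.

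BGLAP, chr1:156241934-156242183, plus strand: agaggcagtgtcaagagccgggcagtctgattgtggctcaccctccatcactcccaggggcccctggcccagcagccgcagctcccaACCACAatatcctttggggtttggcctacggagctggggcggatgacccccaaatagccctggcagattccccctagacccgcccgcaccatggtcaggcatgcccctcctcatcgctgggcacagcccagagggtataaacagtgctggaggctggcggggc
SPP1, chr4:87975464-87975713, plus strand: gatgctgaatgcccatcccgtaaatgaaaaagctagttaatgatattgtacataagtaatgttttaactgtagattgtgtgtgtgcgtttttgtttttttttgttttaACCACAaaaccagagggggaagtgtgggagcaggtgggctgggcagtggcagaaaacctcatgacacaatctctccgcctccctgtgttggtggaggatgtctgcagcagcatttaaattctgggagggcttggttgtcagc
RUNX2, upstream promoter, chr6:45328080-45328329, plus strand: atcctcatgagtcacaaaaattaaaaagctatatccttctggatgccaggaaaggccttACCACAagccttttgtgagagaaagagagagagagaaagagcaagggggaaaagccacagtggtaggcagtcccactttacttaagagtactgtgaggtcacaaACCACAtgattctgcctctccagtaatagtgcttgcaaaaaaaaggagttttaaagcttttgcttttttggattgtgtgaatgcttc
SPARC, chr5:151686916-151687165, minus strand: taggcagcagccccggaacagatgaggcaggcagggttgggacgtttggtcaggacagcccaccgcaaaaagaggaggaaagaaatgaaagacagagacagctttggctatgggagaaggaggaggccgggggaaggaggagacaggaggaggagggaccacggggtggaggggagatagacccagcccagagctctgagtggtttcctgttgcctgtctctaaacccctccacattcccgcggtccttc

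The match in BGLAP began 163 bases before the start, that in SPP1 142 bases before it, and those in RUNX2 191 and 87 bases before it. These starts are those of RefSeq, whereas the gene coordinates given below come from GENCODE release 44. By the latter, the windows shown for RUNX2, SPP1 and SPARC reach into the gene. The RUNX2 match 87 bases before the start lies inside it. The TATA box letters TATAAA, or TTTATA on the other strand, began 28 bases before the start of BGLAP, 30 before that of IBSP and 29 before that of one ALPL promoter, against 10.7% of all promoters that hold them anywhere in this window. A match of letters is a description of the sequence and not a binding site. The counts do not separate transcripts from the upstream and downstream promoters of RUNX2.

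Before the genes themselves, the libraries were checked. Counts on the strand of annotated genes ranged from 29234022 to 50554080 per library. Levels within a gene are given as CPM, the count as a share of the library's total after TMM scaling. NCBP2 ranged from 298.9 to 348.4 CPM for clone A1, from 456.2 to 1035 for clone A4 and from 90.6 to 98.4 for vector, so it went with the labels in all 9. Clone A1 replicate A stood apart. Its correlations of log2 CPM across genes with the other 8 libraries were 0.899 to 0.928, against 0.947 to 0.970 for the 28 other pairs. Values without it are given beside the differences named here for clone A1 and for the NCBP2 arm.

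Of the markers that define the osteoblast, only part were detected in these cells. SPARC, RUNX2, MSX2, ALPL and SPP1 had counts in all 9 libraries and passed the filter on low counts, whereas SP7, DLX5, BGLAP and IBSP did not. To compare genes, CPM was divided by the length of all merged exons in kilobases (RPKM). On that scale SPARC had a mean of 372.2 RPKM ± 63.4 (SD, n = 9) and ranked 24 among 19886 protein-coding genes, and RUNX2 had a mean of 26.9 RPKM ± 4.40 (SD, n = 9) and ranked 1257. MSX2 followed with 3.54 RPKM ± 0.716, ALPL with 0.814 RPKM ± 0.355 and SPP1 with 0.167 RPKM ± 0.0793 (SD, n = 9 each). No ranges over the 9 libraries overlapped between neighbours in this order. ALPL spanned 0.401 to 1.38 RPKM and SPP1 spanned 0.0592 to 0.286 RPKM. The gap between ALPL and SPP1 depends on the length used: the merged exons of SPP1 cover 7250 bases and its canonical transcript 1561. With canonical lengths, the means kept their order at 0.957 RPKM for ALPL and 0.777 RPKM for SPP1, but ALPL spanned 0.471 to 1.62 RPKM and SPP1 0.275 to 1.33 RPKM, and these ranges overlapped.

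**Figure D1:**
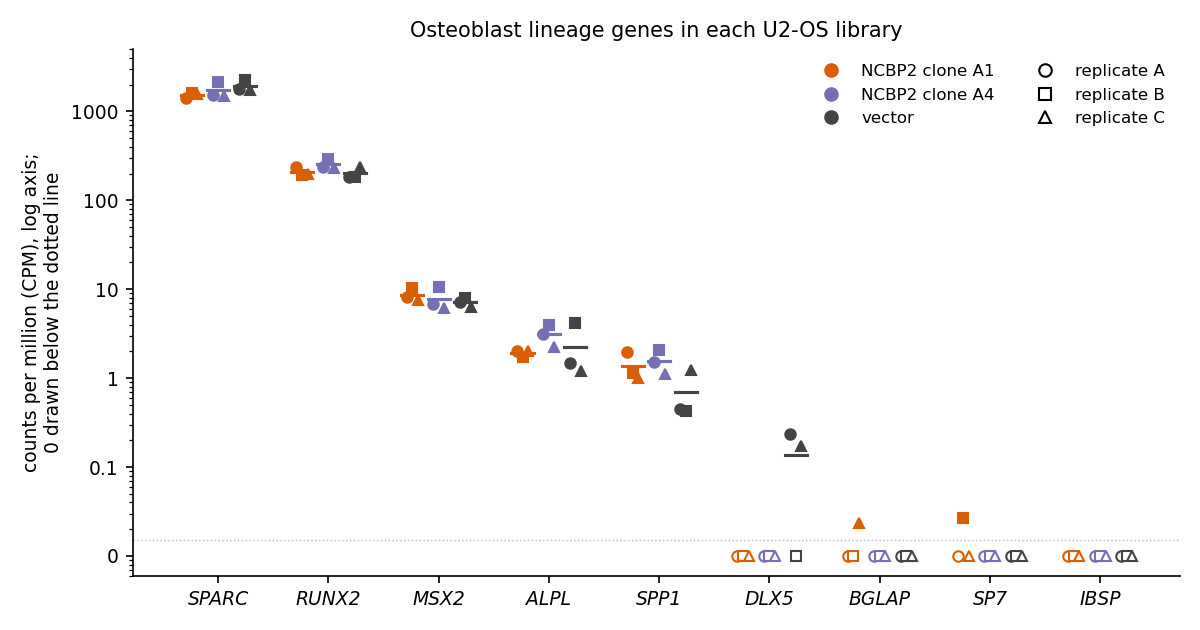
Level of each osteoblast lineage gene in each library in CPM on a log axis, with zeros drawn as open symbols below the dotted line. Colours are the 3 groups, symbols the replicate letters and short lines the group means of 0.02 CPM or more. SPARC and RUNX2 lie above 100 CPM in all libraries, whereas IBSP is at 0 in all 9 and DLX5 has counts only in vector replicates A and C.

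Among the transcription factors, RUNX2 (ENSG00000124813.23, chromosome 6, 45328157 to 45664349, plus strand) was well expressed in all groups. Clone A1 gave 235.6, 192.0 and 197.1 CPM, clone A4 gave 237.8, 294.0 and 228.1 CPM, and vector gave 183.5, 182.4 and 235.3 CPM. Clone A4 replicate B was the highest, and the groups overlapped. The means were 208.2 CPM ± 23.8 for clone A1, 253.3 ± 35.6 for clone A4 and 200.4 ± 30.2 for vector (SD, n = 3 each). In edgeR's quasi-likelihood test the NCBP2 arm differed from vector by a log2 fold change of 0.20 (SE 0.160, adjusted p 0.999; 0.20 without clone A1 replicate A). Clone A4 exceeded vector by 0.34 (SE 0.170, adjusted p 0.9997) and clone A1 exceeded it by 0.06 (SE 0.170, adjusted p 0.960). Single libraries set the sign of the last value, which was -0.037 without clone A1 replicate A (adjusted p 1). It was also negative without vector replicate A and without vector replicate B. Clone A4 exceeded clone A1 by 0.28 (SE 0.170, adjusted p 0.808; 0.38 without clone A1 replicate A). No RUNX2 difference passed the threshold.

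MSX2 (ENSG00000120149.9, chromosome 5, 174724582 to 174730896, plus strand) was the other factor present throughout. Its values were 8.13, 10.2 and 7.62 CPM for clone A1, 6.82, 10.6 and 6.09 for clone A4, and 7.15, 8.0 and 6.25 for vector. The libraries lettered B were the highest of their group, and the groups overlapped. The NCBP2 arm differed from vector by 0.21 on the log2 scale (SE 0.245, adjusted p 0.999 by edgeR). Against vector the difference was 0.28 in clone A1 (SE 0.284, adjusted p 0.863) and 0.13 in clone A4 (SE 0.283, adjusted p 0.9997). These were 0.21 for the NCBP2 arm and 0.33 for clone A1 without clone A1 replicate A. The clone A4 value was -0.16 when its replicate B was left out.

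SP7 and DLX5 were near the limit of detection. SP7 (ENSG00000170374.6, chromosome 12, 53326575 to 53345315, minus strand) had a single count over all 9 libraries, in clone A1 replicate B. A count of 0 allows up to 3 counts, which is 0.0585 to 0.106 CPM depending on the library; such limits cover counting error only, since no molecular identifiers tell copies of one molecule apart. DLX5 (ENSG00000105880.7, chromosome 7, 97020396 to 97024950, minus strand) had 11 counts in vector replicate A, 7 in vector replicate C and 0 in vector replicate B and in all 6 NCBP2 libraries. With the NCBP2 arm set to a floor of 3 counts over the group, DLX5 was 10.6-fold lower than in the vector arm. This fold leaves out the counting error of the vector counts, so it is not a lower limit. It rests on 18 counts from 2 of the 3 vector clones, and the arms overlapped at 0. A two-sided exact permutation test of the mean log2 CPM (prior count 2) over the 84 ways to choose 3 of 9 libraries gave p = 0.0833. With counts in only 2 of the 9 libraries, this test could give no smaller p, so it cannot decide the difference. It also takes the 6 NCBP2 libraries from 2 clones as separate units. In such bulk samples, fewer cells that express a gene and less RNA per cell cannot be told apart. Its neighbour DLX6, which lies beside it on chromosome 7, had 0 counts in all 9 libraries.

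Of the matrix genes, SPARC (ENSG00000113140.11, chromosome 5, 151661096 to 151686975, minus strand), which encodes a collagen-binding glycoprotein, dominated. Clone A1 gave 1398, 1615 and 1570 CPM, clone A4 gave 1544, 2155 and 1495 CPM, and vector gave 1774, 2250 and 1736 CPM. All 3 clone A1 libraries lay below all 3 vector libraries, whereas clone A4 overlapped both groups. That separation was found in clone A1 for 8.06% of the 21682 genes tested. The log2 fold change was -0.33 in clone A1 (SE 0.173, adjusted p 0.710 by edgeR), -0.15 in clone A4 (SE 0.172, adjusted p 0.9997) and -0.24 over the NCBP2 arm (SE 0.151, adjusted p 0.999). Without clone A1 replicate A, the clone A1 value was -0.26 and that of the NCBP2 arm -0.19. No SPARC difference passed the threshold.

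ALPL (ENSG00000162551.14, chromosome 1, 21509397 to 21578410, plus strand), the tissue-nonspecific alkaline phosphatase, was low and varied most among the vector clones. Its values were 2.01, 1.72 and 2.0 CPM for clone A1, 3.11, 3.96 and 2.26 for clone A4, and 1.47, 4.12 and 1.20 for vector. The coefficient of variation was 71.3% in the vector libraries, 27.3% in clone A4 and 8.52% in clone A1. All clone A4 libraries lay above all clone A1 libraries, and the vector libraries spanned both clones. Clone A4 lay above clone A1 without overlap for 7.92% of genes tested, and for ALPL the difference was 0.70 on the log2 scale (SE 0.481, adjusted p 0.822 by edgeR). Without clone A1 replicate A it was 0.73. The difference of the NCBP2 arm from vector was 0.15 (SE 0.436, adjusted p 0.999; 0.21 without clone A1 replicate A). Single libraries set its sign: it was 0.91 without vector replicate B and -0.18 without vector replicate C.

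SPP1 (ENSG00000118785.14 in the tables, chromosome 4, 87975667 to 87983532, plus strand) encodes osteopontin, an integrin-binding phosphoprotein of bone matrix. Clone A1 gave 56, 42 and 43 counts, clone A4 gave 72, 91 and 50, and vector gave 21, 22 and 50. Scaled to CPM, the values were 1.97, 1.13 and 1.01 for clone A1, 1.51, 2.07 and 1.12 for clone A4, and 0.455, 0.429 and 1.22 for vector. Vector replicates A and B lay below all 6 NCBP2 libraries, but vector replicate C lay among them. The NCBP2 arm exceeded vector by 1.07 on the log2 scale (SE 0.496). This was the largest fold change of the 5 tested genes in this comparison, with an unadjusted p of 0.0506 and an adjusted p of 0.874 by edgeR. The exact two-sided permutation p of the mean log2 CPM was 0.0476, unadjusted, in 1 of 36 such tests over the 9 genes and 4 comparisons. Most of these tests could not give so low a value. Those of 3 against 3 libraries cannot go below 0.1, and SP7, DLX5, BGLAP and IBSP had counts in too few libraries. The test also takes the 6 NCBP2 libraries from 2 clones as separate units, so its p does not measure the spread between clones. Clone A1 exceeded vector by 0.96 (SE 0.570, adjusted p 0.755) and clone A4 by 1.16 (SE 0.569, adjusted p 0.990). Without clone A1 replicate A, the value was 0.62 for clone A1 (adjusted p 1) and 0.97 for the NCBP2 arm. Without vector replicate C, the highest vector library, the values were 1.71 for the NCBP2 arm, 1.60 for clone A1 and 1.80 for clone A4, with adjusted p of 0.793, 0.624 and 0.986 by edgeR. Both clones were compared with the same vector libraries.

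**Figure D2:**
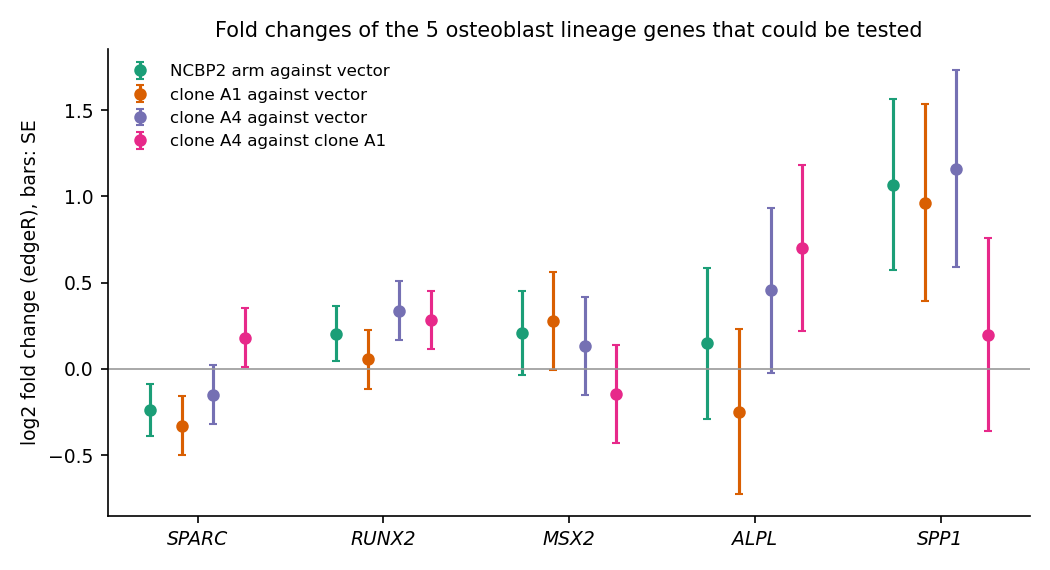
Log2 fold changes by edgeR with standard errors for the 5 genes that passed the filter, in 4 comparisons. SPP1 lies at about 1 in the 3 comparisons with vector, with the widest bars together with ALPL, and none of the 20 values passed an adjusted p of 0.05.

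IBSP and BGLAP, the genes of the mature osteoblast, were not detected above the floor. IBSP (ENSG00000029559.7, chromosome 4, 87799554 to 87812435, plus strand) had 0 counts in all 9 libraries. BGLAP (ENSG00000242252.2, chromosome 1, 156242184 to 156243317, plus strand) had 1 count in all, in clone A1 replicate C. Of the 964 exon bases of BGLAP, 394 (40.9%) are also exon of the read-through gene PMF1-BGLAP on the same strand, which leaves 570 bases to BGLAP alone. The tables set aside reads that fit more than 1 gene, and PMF1-BGLAP itself had 0 counts in all libraries. The canonical transcript of BGLAP covers 506 bases, and how many of these are shared was not counted. Reads from shared bases are lost to both genes, so these counts cannot show that BGLAP RNA was absent. IBSP and SPP1 belong to a family of acidic matrix proteins encoded side by side on chromosome 4. Of the other family members, DMP1 had 5 counts, all in vector replicate B, DSPP had 6 and MEPE had 0 over the 9 libraries, so SPP1 alone of the 5 passed the filter.

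Across all 4 comparisons, no gene of the 9 passed the test. By edgeR, 0 of the 5 tested members passed an adjusted p of 0.05 in any comparison, 0 had an unadjusted p under 0.05, and 0 passed by DESeq2. Over all 21682 genes tested, 0.0184% passed in the NCBP2 arm, 0.0646% in clone A1, 0.115% in clone A4 and 0.161% in clone A4 against clone A1. An unadjusted p under 0.05 was found for 5.71%, 7.51%, 5.25% and 6.63% of genes, in the same order. The median log2 fold change of the 5 members was 0.20 in the NCBP2 arm, where 4 of 5 were positive, and that of all genes was 0.02. In clone A1 the members' median was 0.06 with 3 of 5 positive, and -0.037 without clone A1 replicate A. In clone A4 it was 0.34 with 4 of 5 positive. The share of all genes with a positive value was not counted.

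The other genes of the lineage were drawn from textbook lists, 8 lists with 136 genes beside the 9 members. COL1A1, the alpha 1 chain of type I collagen and the main protein of bone, averaged 132.6 RPKM, whereas COL1A2, its partner chain, averaged 0.0240 RPKM with 106 counts over 9 libraries. COL1A1 ranged from 532.2 to 992.4 CPM for clone A1, from 1238 to 1883 for clone A4 and from 1090 to 1505 for vector. COL1A2 ranged from 0 to 0.317 CPM for clone A1, from 0.0420 to 0.246 for clone A4 and from 0.217 to 1.15 for vector. The RUNX partner CBFB averaged 40.4 RPKM, ATF4, which drives osteoblast amino acid import, 74.7 RPKM, and the Hippo pathway effector YAP1 42.4 RPKM. FN1 (fibronectin) averaged 42.8 RPKM and the phosphate carrier SLC20A1 38.1 RPKM. TWIST1, an early restraint on RUNX2, and DLX6 had 0 counts in all libraries, whereas MSX1 averaged 2.49 RPKM and the vitamin D receptor VDR 1.81 RPKM.

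**Figure D3:**
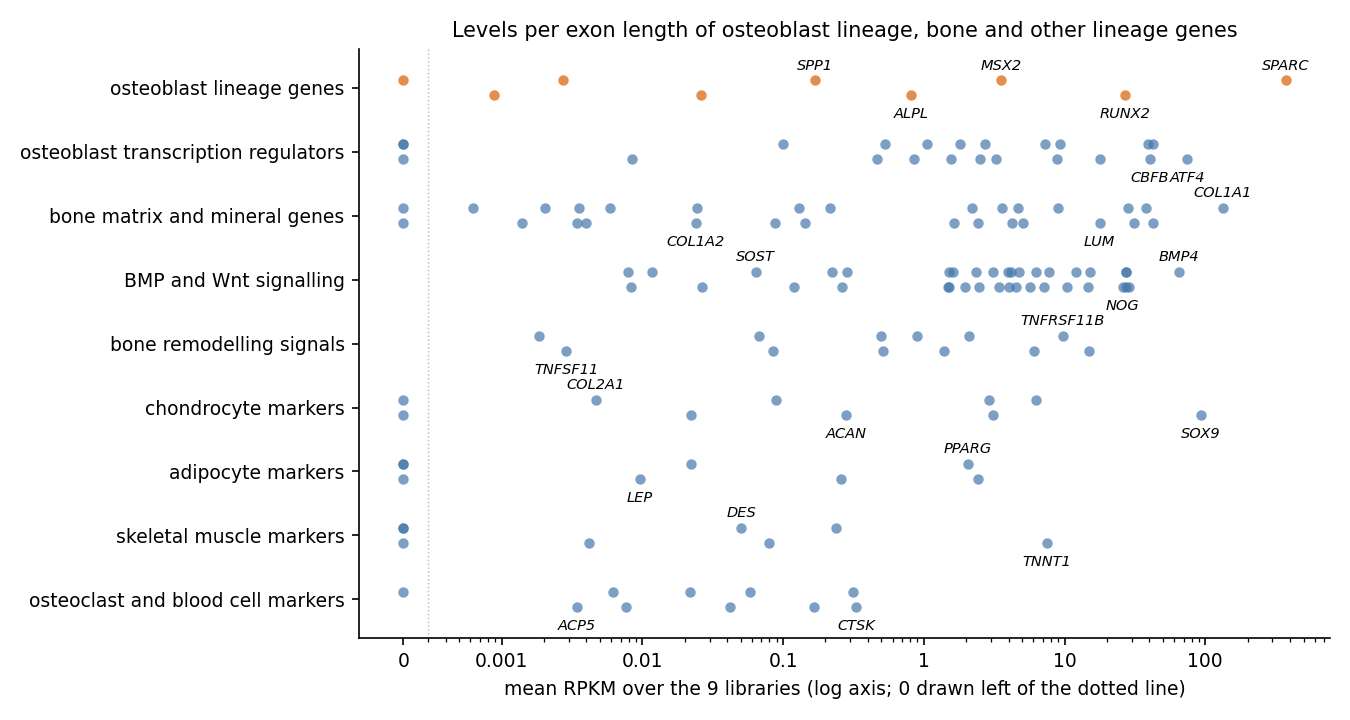
Mean RPKM over the 9 libraries of each gene in the osteoblast lineage set and in 8 lists of bone and other lineage genes, on a log axis with zeros left of the dotted line. SPARC is the highest of all genes drawn, COL1A1 and COL1A2 lie far apart, and SOX9 is the one chondrocyte marker above 10 RPKM.

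Among 22 further transcription regulators, 18 could be tested and 0 passed by edgeR in any of the 4 comparisons. At an unadjusted p under 0.05, 2 were higher and 3 lower in the NCBP2 arm, against 2.75% and 2.96% of all genes. DESeq2 called 2 of them in each comparison with vector, 1 higher and 1 lower each time, and 0 between the clones. PRRX1, a homeodomain factor of limb mesenchyme, averaged 7.34 CPM ± 2.30 for clone A1, 5.81 ± 0.498 for clone A4 and 13.0 ± 0.863 for vector (SD, n = 3 each). Its log2 fold change in the NCBP2 arm was -0.98 (SE 0.242, edgeR adjusted p 0.368, DESeq2 adjusted p 0.0205; -0.89 without clone A1 replicate A). MEF2C, a MADS-box factor, averaged 3.46 CPM ± 1.05 for clone A1, 4.74 ± 0.884 for clone A4 and 8.25 ± 0.507 for vector (SD, n = 3 each). Its difference was -1.25 in clone A1 (SE 0.312, edgeR adjusted p 0.249, DESeq2 adjusted p 0.0113; -1.33 without clone A1 replicate A). For PRRX1 and MEF2C, all 6 NCBP2 libraries lay below all 3 vector libraries, which was so for 2.26% of genes. SNAI2, a mesenchymal repressor, exceeded clone A1 in clone A4 by 0.78 (unadjusted p 0.00681, edgeR adjusted p 0.429; 0.96 without clone A1 replicate A). DESeq2 called 0.526% of the genes it tested in the NCBP2 arm, 1.26% in clone A1, 1.01% in clone A4 and 1.14% between the clones.

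In the bone matrix and mineral list, 20 of 29 genes were tested and 0 passed by edgeR in any comparison. At an unadjusted p under 0.05, 0 were higher and 3 lower in clone A1, 3 were higher and 1 lower in clone A4 against clone A1, 1 was lower in the NCBP2 arm and 0 passed in clone A4. Over all genes tested, the shares in either direction were 7.51%, 6.63%, 5.71% and 5.25%, in the same order. DESeq2 called 1 gene of the list, MGP in clone A1. The median log2 fold change was -0.18 in the NCBP2 arm, -0.28 in clone A1 and -0.16 in clone A4, with all genes at 0.02, -0.02 and 0.03. For COL1A1 the log2 difference was -0.64 in clone A1 against vector (SE 0.243, edgeR adjusted p 0.522) and 0.83 between clone A4 and clone A1 (SE 0.243, edgeR adjusted p 0.359). All 3 clone A1 libraries lay below the other 6. Taken singly, clone A1 lay below vector in this way for 8.06% of genes and below clone A4 for 7.92%. The share of genes below both was not counted. Without clone A1 replicate A, the lowest library, these COL1A1 values were -0.40 (edgeR adjusted p 0.913) and 0.60 (edgeR adjusted p 0.678). SMOC1, a secreted calcium-binding protein related to SPARC, averaged 11.1 CPM ± 4.45 for clone A1 and 25.7 ± 17.7 for vector (SD, n = 3 each, edgeR adjusted p 0.501; log2 difference -1.21, and -1.29 without clone A1 replicate A). The groups overlapped, with 12.5, 14.8 and 6.18 CPM for clone A1 and 17.9, 45.9 and 13.3 for vector, so vector replicate B raised the vector mean. MGP, an inhibitor of mineralization, had a single count in clone A1 against 28, 40 and 10 for vector (edgeR adjusted p 0.286, and 0.494 without clone A1 replicate A; DESeq2 adjusted p 0.0289). BGN, a small proteoglycan, had 18, 67 and 43 counts for clone A1 and 13, 0 and 3 for clone A4, without overlap (edgeR adjusted p 0.497, and 0.460 without clone A1 replicate A), and 5.72% of genes lay lower in clone A4 in this way.

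BMP and Wnt ligands drive osteoblast formation. In the BMP and Wnt list, 33 of 37 genes were tested and 0 passed by edgeR in any comparison, with a median log2 fold change of 0.00 in the NCBP2 arm. DESeq2 called 0, and at an unadjusted p under 0.05, 3 were higher and 0 lower in the NCBP2 arm, 4 higher and 1 lower in clone A1, 2 higher and 1 lower in clone A4, and 0 between the clones. Over all genes tested, the shares in either direction were 5.71%, 7.51%, 5.25% and 6.63%, in the same order. BMP4, a ligand that induces bone, averaged 65.1 RPKM, the BMP target ID1 28.9 RPKM and the Wnt effector CTNNB1 27.4 RPKM. For BMP4, clone A1 gave 145.7, 233.8 and 235.6 CPM, clone A4 gave 254.7, 317.1 and 204.5 CPM, and vector gave 135.8, 174.6 and 111.9 CPM. All clone A4 libraries exceeded all vector libraries, as was so for 6.2% of genes, and the difference was 0.88 in log2 terms (SE 0.237; adjusted p 0.392 by edgeR). LRP6, a Wnt co-receptor, lay above vector in both clones without overlap (all 6 NCBP2 libraries above all 3 vector libraries for 1.47% of genes, and 6.18% for clone A1 alone), by 0.36 in each (edgeR adjusted p 0.635 in clone A1 and 0.890 in clone A4). The clone A1 value of LRP6 was 0.29 without clone A1 replicate A. For the BMP receptor BMPR2 and the inhibitory SMAD6 in clone A1, and for BMPR1B in clone A4, the log2 differences from vector were 0.55, 0.49 and -0.64, with edgeR adjusted p of 0.627, 0.592 and 0.681. BMPR2 was at 0.34 and SMAD6 at 0.58 in clone A1 when its replicate A was left out.

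Osteoblasts and osteocytes also send signals that govern osteoclasts, the cells that resorb bone. Of 12 genes in that list, 10 were tested and 0 passed by edgeR in any comparison, with 2 called by DESeq2 in clone A1 and the same number between the clones. At an unadjusted p under 0.05, 3 were lower in clone A1, 2 were higher when clone A4 was compared with clone A1, and 0 passed in the other 2 comparisons. Over all genes tested, 7.51% had such a p in clone A1 and 6.63% between the clones, in either direction. TNFRSF11B (osteoprotegerin), the decoy receptor that blocks osteoclast formation, had 14.6, 13.6 and 17.2 CPM for clone A1, 27.2, 34.7 and 28.1 for clone A4, and 24.8, 30.2 and 28.8 for vector. All 3 clone A1 libraries lay below the other 6. Taken singly, clone A1 lay below vector without overlap for 8.06% of genes and below clone A4 for 7.92%. The share of genes below both was not counted. For TNFRSF11B, clone A4 exceeded clone A1 by 0.99 (SE 0.198, edgeR adjusted p 0.105, DESeq2 adjusted p 0.000340), and clone A1 differed from vector by -0.88 (SE 0.198, edgeR adjusted p 0.179, DESeq2 adjusted p 0.00351). These TNFRSF11B values were 0.96 and -0.85 without clone A1 replicate A, with edgeR adjusted p of 0.209 and 0.330. CSF1, the macrophage growth factor that osteoclasts need, averaged 4.35 CPM ± 0.417 for clone A1, 9.02 ± 1.90 for clone A4 and 8.40 ± 1.43 for vector (SD, n = 3 each). Its difference between the clones was 1.05 (SE 0.272, edgeR adjusted p 0.287, DESeq2 adjusted p 0.0138), and 0.98 without clone A1 replicate A (edgeR adjusted p 0.503). TNFSF11 (RANKL), the ligand that osteoprotegerin blocks, had 3 counts over the 9 libraries. EPHB4, an ephrin receptor, averaged 32.0 CPM ± 8.06 for clone A1 and 47.2 ± 10.2 for vector (SD, n = 3 each, edgeR adjusted p 0.613; log2 difference -0.56, and -0.36 without clone A1 replicate A). PDPN, an early osteocyte gene, averaged 15.02 RPKM.

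**Figure D4:**
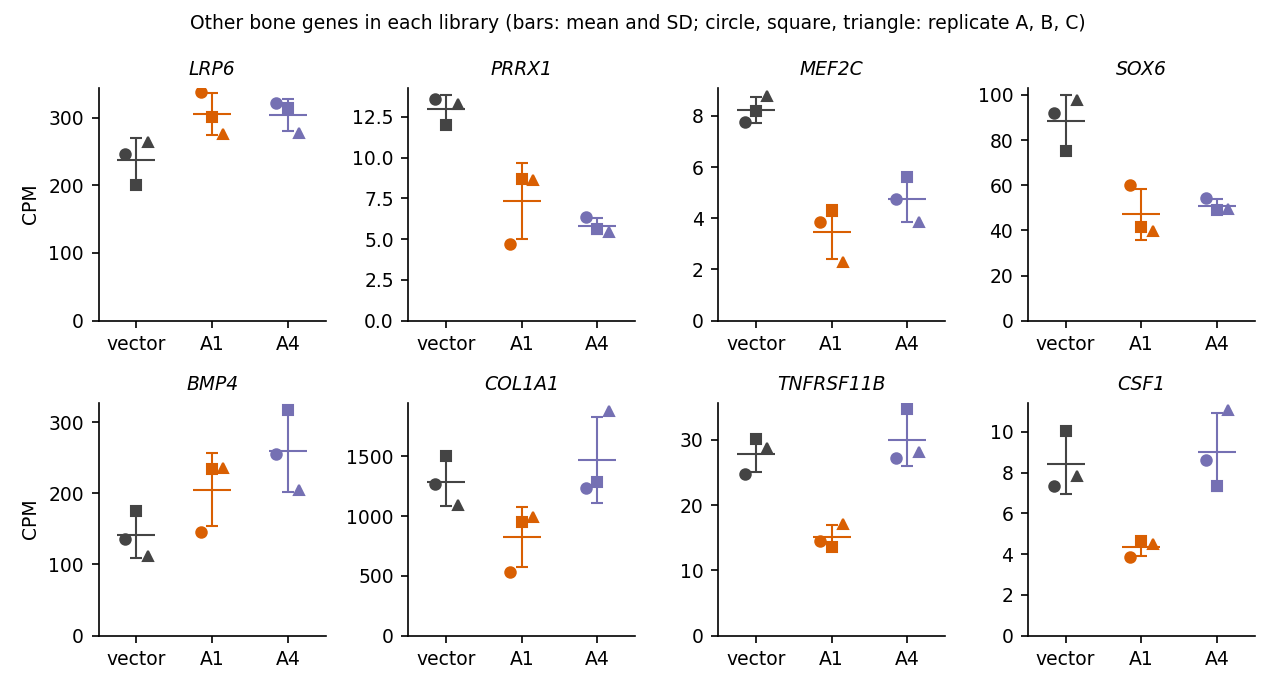
CPM per library of 8 bone and cartilage genes, picked from those named in the text, with group mean and SD (n = 3 each). The groups are the vector libraries, clone A1 and clone A4. LRP6 is higher and SOX6, PRRX1 and MEF2C are lower in all 6 NCBP2 libraries than in all 3 vector libraries. Over all genes tested, 1.47% lay higher and 2.26% lower in this way. COL1A1, TNFRSF11B and CSF1 are lower in clone A1 than in the other 2 groups. Taken singly, clone A1 lay below vector for 8.06% of genes and below clone A4 for 7.92%, and the share below both was not counted. None passed an adjusted p of 0.05 by edgeR.

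Markers of other lineages were checked in the same way. Of the chondrocyte markers, SOX9, the master factor of cartilage, averaged 92.8 RPKM, whereas the cartilage collagen COL2A1 had 11 counts in all and COL9A1 and COMP had 0. The summed level of the 10 chondrocyte markers ranged from 95.7 to 103.7 RPKM in clone A1, 78.3 to 122.3 RPKM in clone A4 and 113.6 to 130.7 RPKM in the vector libraries. This sum is mostly SOX9, so it does not describe the list as a whole. SOX9 alone also lay lower in clone A1 than in vector without overlap, as was so for 8.06% of genes. SOX6, a partner of SOX9, averaged 47.2 CPM ± 11.2 for clone A1, 50.8 ± 2.98 for clone A4 and 88.3 ± 11.8 for vector (SD, n = 3 each). Its log2 fold change was -0.85 in the NCBP2 arm (SE 0.162, edgeR adjusted p 0.150, DESeq2 adjusted p 0.00324), and -0.91 without clone A1 replicate A (edgeR adjusted p 0.0780). MATN3 averaged 6.24 RPKM and went the other way. In clone A1 its log2 difference from vector was 0.66 (SE 0.282, edgeR adjusted p 0.620; 0.38 without clone A1 replicate A). Clone A1 lay above vector for MATN3 without overlap, as was so for 6.18% of genes. Of the 6 chondrocyte markers tested in clone A1, 2 had a positive and 4 a negative log2 fold change. The adipocyte list held PPARG at 2.05 RPKM, LPL at 2.44 RPKM and CEBPA at 0.259 RPKM, with ADIPOQ, FABP4 and CIDEC at 0 counts. The muscle factors MYOD1, MYOG and MYF5 had 0 counts, while TNNT1 averaged 7.52 RPKM, MYH3 0.239 RPKM and ACTA1 0.0791 RPKM. Osteoclast and blood cell markers summed to at most 1.37 RPKM in any library, led by CTSK (0.332 RPKM), MMP9 (0.313 RPKM) and OSCAR (0.165 RPKM). By edgeR, 0 genes of these 4 lists passed an adjusted p of 0.05 in any comparison. At an unadjusted p under 0.05 the chondrocyte list had 2 genes lower in the NCBP2 arm, 1 higher and 1 lower in clone A1 and 1 lower in clone A4, and the other 3 lists had 0. Over all genes tested, the shares in either direction were 5.71% in the NCBP2 arm, 7.51% in clone A1 and 5.25% in clone A4. DESeq2 called SOX6 alone, in each comparison with vector.

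Finally, the genes whose log2 CPM followed each member most closely over the 9 libraries were listed, among 11415 protein-coding genes with a mean log2 CPM of at least 1. Log2 CPM used a prior count of 2. The nearest to RUNX2 was CD109 (Pearson r 0.970), to MSX2 HCCS (0.957), to ALPL GPX7 (0.971), to SPARC FAT1 (0.973) and to SPP1 PIKFYVE (0.945). Without clone A1 replicate A these r were 0.971, 0.956, 0.971, 0.977 and 0.940. These values describe 9 libraries that share clones and carry no test, and the highest of 11415 values is high by selection.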

How the data were processed

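The authors deposited 1 table of raw counts per library, with 4 opening lines that name no gene (44.5% to 63.6% of reads) and were left out. STAR 2.7.1a and GRCh38 are named per the submitters' processing notes; the annotation and counting options are not given in the sources used here. The labels' molecule field names polyadenylated RNA, whereas their protocol removed ribosomal RNA. Column 3 was taken as the gene strand; the opposite strand held 5.51% to 6.42% of stranded counts. The titles call the NCBP2 clones CbcA1 and CbcA4. Of 60609 identifiers, 60295 matched GENCODE release 44, which gave symbols, coordinates and lengths.

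Counts were tested with edgeR 4.0.16 (R 4.3.3; filterByExpr, TMM, robust quasi-likelihood, Benjamini-Hochberg over all 21682 genes, threshold 0.05): 2 groups for the NCBP2 arm and 3 groups for the clones. DESeq2 1.42.0 was an alternative. Log2 CPM used a prior count of 2. The scripts were tested on simulated data. The members and lists were chosen with earlier results of these data known. Named genes are the 9 members, list genes past the threshold, up to 3 per list with the smallest unadjusted p under 0.05 in each clone comparison, the 3 highest per list and 9 fixed genes; others were chosen after their values were seen. The values of 1 list gene are not reported here, though counts over its list include it. What the replicate letters stand for is not stated, so the main test did not pair libraries by letter.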

Additional observations from a re-analysis of the deposited data

Results flagged for a closer look

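SPARC in the 6 NCBP2 libraries had 1 library far from the others. Clone A4 replicate B measured 2155 CPM and the other 5 measured 1398 to 1615 CPM, and on the log2 scale its gap to the nearest library was 0.666 of the whole range, above Dixon's critical value of 0.625 for 6 values. Chance flags about 1 in 20 such groups, and 5 genes were examined. The same library was also the highest of the 6 for RUNX2, MSX2, ALPL and SPP1.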

How the results depend on the processing

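No osteoblast lineage gene passed the threshold under any of the alternatives (DESeq2, size factors by RLE, no filter, counts without strand, replicate block, counts summed per clone, each library left out). Over all genes, the count of calls was 4 in the NCBP2 arm, 14 in clone A1, 25 in clone A4 and 35 between the clones. By DESeq2 it was 103, 274, 185 and 246, and without a filter 20, 312, 163 and 231, in the same order. With the replicate block it was 13, 38, 53 and 51. Same-letter libraries of different groups correlated between -0.102 and 0.179 in their deviations from group means. Those with different letters correlated between -0.271 and 0.221. Whether the letters mark a shared step is not stated, and they were not taken as pairs in the main test. Counts summed per clone gave 0 calls in the NCBP2 arm. Leaving out each library gave 1 to 8, 3 to 14, 7 to 41 and 10 to 56 calls. Of 285 alternative values for the 20 log2 fold changes of members, 10 changed sign, all of them with 1 library left out. Over these leave-outs, ALPL ranged from -0.18 to 0.91 in the NCBP2 arm (-0.18 without vector replicate C, -0.11 without vector replicate A, -0.049 without clone A4 replicate B) and from -0.57 to 0.52 in clone A1 (0.52 without vector replicate B). RUNX2 in clone A1 ranged from -0.037 to 0.17, with -0.037 without clone A1 replicate A, -0.012 without vector replicate A and -0.0058 without vector replicate B. Clone A4 replicate B set the lowest values of MSX2 in clone A4 (-0.16 to 0.27) and, between the clones, of SPARC (-0.021 to 0.26) and SPP1 (-0.063 to 0.54). The causes were not tested. With canonical transcript lengths, chosen after seeing the data, mean levels were 39.8 RPKM for RUNX2, 500.2 for SPARC and 0.777 for SPP1. SPP1 rests on 21 to 91 counts per library.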

Other observations

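Reads on the strand opposite to SP7 and DLX5 outnumbered those on the gene strand. Over the 9 libraries SP7 had 102 opposite-strand counts against 1, and DLX5 had 148 against 18, whereas RUNX2 had 221 against 84123 and SPARC 2707 against 669967. In the order A, B, C, opposite-strand counts of DLX5 were 44, 8 and 3 for clone A1, 25, 3 and 9 for clone A4, and 20, 19 and 17 for vector. Those of SP7 were 0, 29 and 9 for clone A1, 9 for every clone A4 library, and 18, 12 and 7 for vector. GENCODE 44 lists no exon of another gene over the exons of either gene on the opposite strand.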
